A study of Mus musculus with 25 samples.

Results

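The mouse miRNA hairpins mmu-mir-322, mmu-mir-503, mmu-mir-351, mmu-mir-542, mmu-mir-450a-2, mmu-mir-450a-1 and mmu-mir-450b lie in a row on the X chromosome and are thought to be cut from 1 long primary transcript, as a polycistron. They were chosen by name from the deposited precursor counts, 7 of 1193 hairpins, after the falls of mir-322 and mir-351 between 2 and 30 months had been seen in these libraries. The libraries were small RNA from brain hemispheres of male C57BL/6 mice with no treatment or altered allele named, 5 libraries at each of 2, 9, 15, 24 and 30 months of age, 25 in all. Each title carries its own animal number, so replicates were taken as separate animals. Hemisphere RNA mixes all cell types of the tissue, so that fewer cells of a type and less of an miRNA per cell cannot be told apart here.

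A miRNA is cut from its hairpin as a strand of about the length printed below and guides the silencing complex to messenger RNAs that pair with its seed, the bases near its 5′ end. The polycistron is known from growth and differentiation. miR-322 (the mouse counterpart of human miR-424) and miR-503 are relatives of the miR-15/16 family, which represses cell cycle genes such as cyclins, and both are induced as muscle precursors leave the cell cycle. miR-351 is a relative of the miR-125 family.

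RefSeq (GRCm38.p6) held mature sequences for 7 of 7 members. They are shown 5′ to 3′ with the seed, bases 2 to 8, in capitals, because the seed groups the members; both arms of a hairpin were counted together, so no value below belongs to 1 arm.
miR-322-5p: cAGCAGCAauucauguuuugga
miR-503-5p: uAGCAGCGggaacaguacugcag
miR-16-5p, a relative outside the cluster: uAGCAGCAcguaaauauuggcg
miR-351-5p: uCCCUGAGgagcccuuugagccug
miR-125b-5p, a relative outside the cluster: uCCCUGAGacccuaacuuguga
miR-542-3p: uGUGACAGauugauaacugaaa
miR-542-5p: cUCGGGGAucaucaugucacga
miR-450a-5p, from both copies: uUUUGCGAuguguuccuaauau
miR-450b-5p: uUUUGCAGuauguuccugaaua
miR-450a-1-3p: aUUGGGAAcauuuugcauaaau
miR-450a-2-3p: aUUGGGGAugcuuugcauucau
miR-450b-3p: aUUGGGAAcauuuugcaugcau
The seed of miR-322-5p is that of miR-15a, miR-15b, miR-16, miR-195a, miR-195b and miR-497a. In the RefSeq table miR-6342, miR-6353 and miR-6419 have it too, and they were not among the relatives followed below. miR-503-5p has the same bases 2 to 7 and differs in the last seed base (A8G, counted from 1 at the 5′ end, with the base of miR-322-5p first), and no other mature miRNA of the RefSeq table has its full seed. miR-351-5p has the seed of miR-125a-5p and miR-125b-5p but is identical to miR-125b-5p at only 10 of the 22 positions compared. miR-6367 and miR-6394 also have this seed and were likewise not followed. miR-542-3p, miR-450a-5p and miR-450b-5p share their seeds with no other mature sequence of that table outside the cluster. The mir-450 hairpins resemble each other: miR-450a-5p and miR-450b-5p are identical at 15 of 22 positions and differ in the seed at G7A and A8G, while the 3p arms of mir-450a-1 and mir-450b are identical at 20 of 22 positions and have 1 seed. Both mir-450a copies give the same 5p strand, so their separate counts are uncertain.

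In the GENCODE M21 annotation of GRCm38 the hairpins span chromosome X from 53047997 to 53054349 (6353 bases) on the minus strand. In the direction of transcription the order is mir-322 (53054255 to 53054349), mir-503 (53053984 to 53054054), mir-351 (53053255 to 53053353), mir-542 (53049403 to 53049487), mir-450a-2 (53048299 to 53048367), mir-450a-1 (53048154 to 53048244) and mir-450b (53047997 to 53048078). No other annotated gene overlaps a member. The noncoding gene C430049B03Rik ends 696 bases upstream of mir-322 on the same strand, the lincRNA Gm28730 lies between mir-351 and mir-542, and the protein-coding neighbours are Hprt and Plac1. The gaps divide the members into an upstream trio separated by 200 and 630 bases, then 3767 bases to mir-542, 1035 more to mir-450a-2, and 54 and 75 bases between the mir-450 hairpins.

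The libraries held 3.78 to 9.52 M counts in total (median 5.61 M). Levels are in CPM, counts on the scale of 1 M per library after TMM scaling (trimmed mean of M values, factors 0.952 to 1.04). Among 50 pairs of replicates of 1 age the chi-square per degree of freedom was at least 12.5, so no library was a second copy of another of its age. Pairs between ages were not examined. The 5 libraries of sequencing lane 3, 1 per age, had more mir-322 relative to mir-351 than most of the other 20, and results that this touches are given within lanes or without lane 3.

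Reads were very unevenly divided among the members. mir-351 took 58.0% ± 2.60 of the reads of the cluster and mir-322 31.2% ± 2.68 (SD, n = 25). mir-450b followed with 3.90% ± 0.631, mir-450a-1 with 2.34% ± 0.503, mir-450a-2 with 2.05% ± 0.479 and mir-542 with 2.02% ± 0.373, and the last 3 did not differ beyond their spread. mir-503 took 0.426% ± 0.132, although its hairpin lies between the most abundant members. Mean levels ran from 142 CPM for mir-351 and 76.5 CPM for mir-322 to 1.03 CPM for mir-503. Hairpin reads do not scale with length, since mature miRNAs are read whole, but the ligation of adapters differs between sequences, so this order is one of reads and not of molecules.

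**Figure D1:**
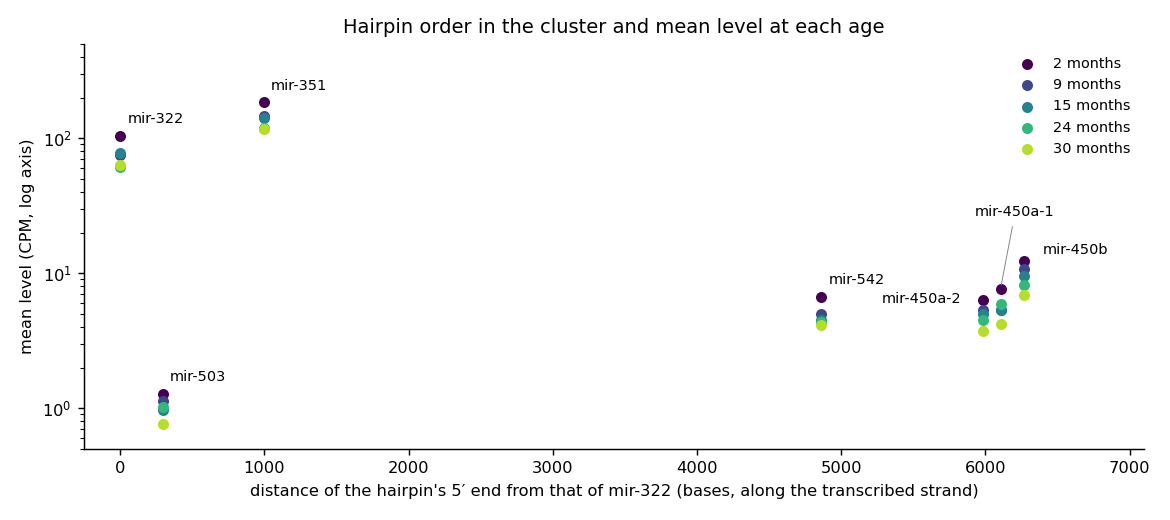
Mean level of each hairpin (CPM, log axis, n = 5 libraries per point) against the distance in bases of its 5′ end from that of mir-322, with 1 colour per age. The means of mir-322 and mir-351 lie between 61.6 and 184 CPM, those of mir-503 between 0.761 and 1.28 CPM, and those of the 4 hairpins from 4862 bases on between 3.74 and 12.3 CPM.

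The counts set how firmly each member can be read. mir-351 had 496 to 1224 reads per library and mir-322 232 to 732, mir-450b 25 to 84, mir-450a-1 18 to 56, mir-450a-2 9 to 42, mir-542 10 to 44 and mir-503 3 to 12. The variance around the age means was 5.28 times the counting variance for mir-322 and 5.21 times for mir-351, but 1.03 times for mir-542, 1.14 for mir-450a-1, 1.13 for mir-450b and 1.49 for mir-450a-2. The spread between animals of these 4 is therefore close to that of read counting. edgeR's filter on low counts (filterByExpr) kept 6 members among the 425 precursors fitted and set mir-503 aside.

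The whole cluster, as the summed level of the 7 members, stood highest in the youngest brains. The sum was 322.5 ± 23.7 CPM at 2 months, 248 ± 22.8 at 9 months, 246 ± 7.97 at 15 months, 205 ± 11.7 at 24 months and 201 ± 6.31 at 30 months (SD, n = 5 each). Libraries at 2 months lay between 296 and 352 CPM and those at 30 months between 194 and 209 CPM, so the oldest and youngest did not overlap. The mean at 9 months differed from that at 2 months by -23.2%, and the mean at 24 months from that at 15 months by -16.6%. Neither pair of ages overlapped. Of single fitted precursors, 11.1% were lower without overlap at 30 against 2 months, 4.24% at 9 against 2 and 0.941% at 24 against 15 months. From 9 to 15 months the difference was -0.831% and from 24 to 30 months -1.95%, both less than the SD of either age. By their means the ages followed the order 2, 9, 15, 24 and 30 months. The 9-month and 24-month libraries overlapped, since the lowest of 9 months was at 213.7 CPM and the highest of 24 months at 217 CPM. As mir-351 and mir-322 supply most of the reads, the sum mainly follows them.

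mir-322 lay at 112.9, 105.0, 89.9, 97.4 and 114.7 CPM in the 5 libraries of 2 months. At 9 months it lay at 59.2, 81.6, 72.8, 83.3 and 78.1 CPM, and at 15 months at 84.7, 66.1, 87.7, 80.3 and 71.3 CPM. At 24 months it lay at 64.8, 60.8, 54.6, 67.5 and 60.6 CPM, and at 30 months at 56.3, 59.1, 72.2, 57.8 and 73.7 CPM. Every library of 2 months was above every other library. The 2-month libraries took part in the choice, and the share of all precursors separated in this way was not computed. Replicate 1 of 9 months, from lane 8, was low for its age. The lane 8 libraries of 15, 24 and 30 months were also below their age means, and no 2-month library was in lane 8. Within the 4 lanes that held both 2 and 9 months, mir-322 was lower at 9 months by -0.52 to -0.11 (log2).

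mir-351 lay at 150.8, 199.7, 170.9, 194.4 and 205.2 CPM at 2 months. At 9 months the values were 130.04, 132.7, 149.5, 163.7 and 149.7 CPM, and at 15 months 136.9, 142.6, 141.0, 145.6 and 145.2 CPM. At 24 months they were 123.4, 128.6, 111.2, 109.8 and 123.1 CPM, and at 30 months 119.9, 121.9, 112.9, 114.6 and 117.2 CPM. All libraries of 24 and 30 months were below all libraries of the 3 younger ages. For this separation too, and for that of mir-542 below, the share of all precursors was not computed. The lowest library of 2 months, replicate 1 of lane 3, was within the range of 9 months.

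mir-450b lay between 10.9 and 13.2 CPM at 2 months (median 12.6), 9.43 to 12.4 at 9 months (median 11.3) and 7.63 to 11.9 at 15 months (median 10.1). It lay between 6.66 and 10.8 CPM at 24 months (median 7.69) and 6.04 to 8.49 at 30 months (median 6.56). mir-542, whose 3p strand is known to target survivin, averaged 6.68 ± 0.487 CPM at 2 months, 4.95 ± 0.515 at 9 months, 4.49 ± 1.66 at 15 months, 4.35 ± 0.809 at 24 months and 4.16 ± 0.506 at 30 months (SD, n = 5). For mir-542 the libraries of 2 months were above all libraries of the 4 later ages, which overlapped each other, and replicate 5 of 15 months held 10 reads (1.77 CPM).

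mir-450a-2 averaged 6.37 ± 0.417, 5.34 ± 0.993, 5.00 ± 0.664, 4.53 ± 1.06 and 3.74 ± 1.82 CPM at 2, 9, 15, 24 and 30 months (SD, n = 5). Its libraries of 30 months ran from 2.18 CPM (9 reads) to 6.74 CPM (34 reads), so that age overlapped with each of the others. mir-450a-1 averaged 7.68 ± 1.39, 5.33 ± 0.664, 5.34 ± 1.09, 5.91 ± 1.31 and 4.21 ± 0.691 CPM at the same ages. In mir-450a-1 the mean at 24 months was above those of 9 and 15 months, with 1 library at 8.26 CPM and the other 4 between 5.23 and 5.45 CPM. mir-450a-1 took 34.6% to 70.0% of the reads of both copies (53.3% over all libraries). mir-503 averaged 1.28 ± 0.464, 1.12 ± 0.481, 0.972 ± 0.268, 1.02 ± 0.171 and 0.761 ± 0.221 CPM, and the ages overlapped.

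**Figure D2:**
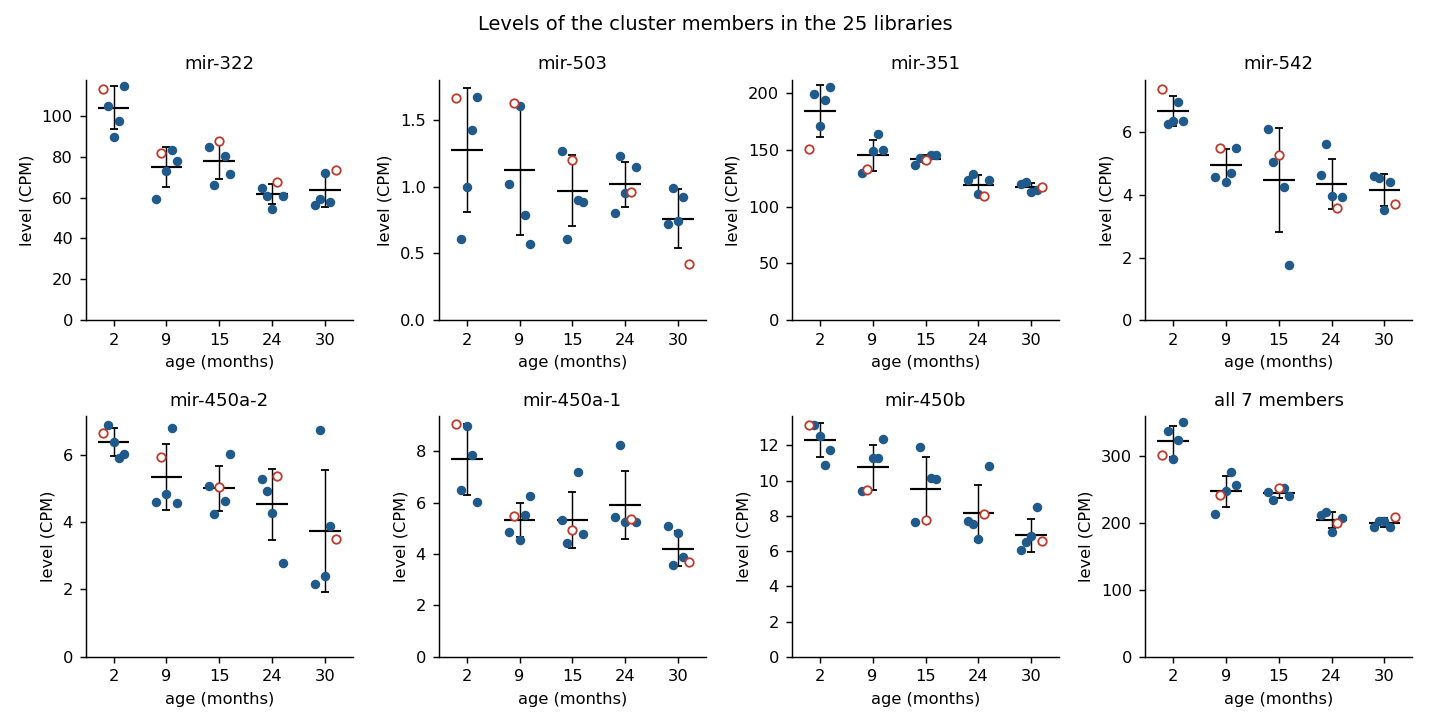
Level (CPM) of each member and of their sum in every library, by age in months; bars are means with SD (n = 5) and open red circles the libraries of lane 3. The sum lies between 296 and 352 CPM at 2 months and between 194 and 209 CPM at 30 months, while mir-503, below 2 CPM, overlaps at all ages.

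The difference between 30 and 2 months brought these hairpins to notice and is given as a description. The values come from a single edgeR model of the 25 libraries with 1 mean for each age. The log2 fold changes at 30 against 2 months were -0.70 ± 0.10 for mir-322, -0.65 ± 0.08 for mir-351, -0.69 ± 0.19 for mir-542, -0.76 ± 0.21 for mir-450a-2, -0.88 ± 0.16 for mir-450a-1 and -0.83 ± 0.13 for mir-450b (SE, n = 5 per age). All 6 were below 0, with a median of -0.73, against a median of 0.05 over the 425 fitted precursors. As percentages the differences lay between -45.6% and -36.3%. Of the 7 members, 5 did not overlap between the ages, where 11.1% of all fitted precursors were lower without overlap; mir-450a-2 and mir-503 overlapped. The adjusted p was under 0.05 for 6 of 6, as for 17.9% of the precursors in this direction, which is a property of the choice. When both mir-450a copies were summed the value was -0.84, and without a filter mir-503 lay at -0.83. In the 4 lanes that held both ages, each member was lower at 30 months in 4 of 4 lanes, with the exception of mir-450a-2 in 3 of 4.

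The path between those ages differed in detail. At 9 against 2 months the log2 fold changes were -0.47 ± 0.10 for mir-322, -0.34 ± 0.08 for mir-351, -0.43 ± 0.19 for mir-542, -0.53 ± 0.16 for mir-450a-1, -0.26 ± 0.21 for mir-450a-2 and -0.19 ± 0.13 for mir-450b (SE). These values are again given without a test, since the 2-month libraries took part in the choice. Among the 7 members mir-322 and mir-542 were lower without overlap at 9 months, where 4.24% of the precursors were. At 30 against 24 months mir-322 lay at 0.05 ± 0.10 and mir-351 at -0.02 ± 0.08. The mir-450 hairpins lay lower there, at -0.50 ± 0.16 for mir-450a-1, -0.28 ± 0.22 for mir-450a-2 and -0.24 ± 0.14 for mir-450b, and mir-542 at -0.07 ± 0.19. Without 30-month replicate 2 mir-450a-2 was at -0.58, without 24-month replicate 5 at -0.42 and without 30-month replicate 3 or 1 at -0.18, and mir-450b was at -0.14 without 24-month replicate 5. The sign of mir-322 and mir-542 also turned in this comparison, for mir-322 to -0.02 without 24-month replicate 3 or 30-month replicate 3 and to -0.03 without 30-month replicate 5, and for mir-542 to 0.02 without 24-month replicate 2. Only mir-450a-1 was lower without overlap in that comparison, as were 2.35% of the precursors. Whether the upstream and downstream members differ in their course was not tested.

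**Figure D3:**
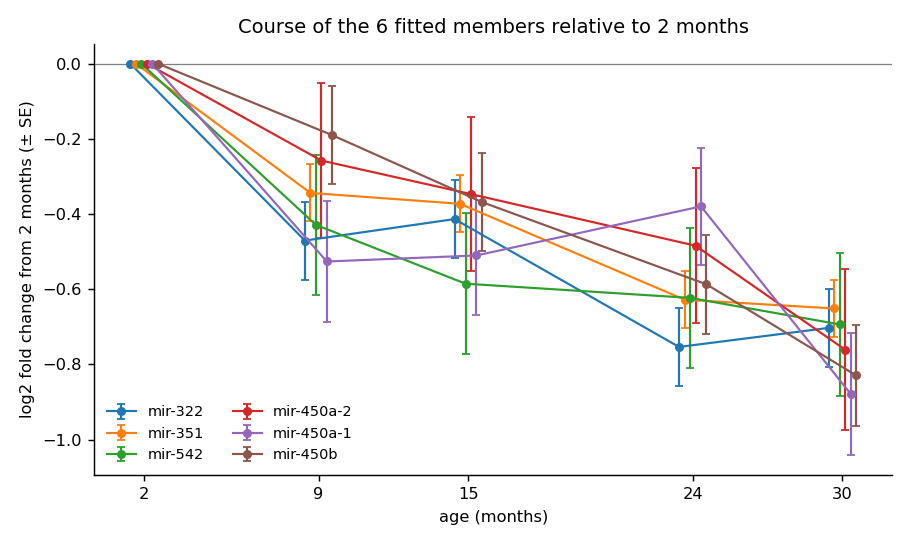
Log2 fold change from 2 months (± SE, 1 fit of 25 libraries) of the 6 fitted members against age in months. At 30 months they lie between -0.88 and -0.65; at 24 months mir-450a-1 is at -0.38 and mir-322 at -0.75.

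The middle ages, 9, 15 and 24 months, took no part in the choice and allow a test of whether the members went on falling through adult life. At 24 against 9 months 5 of the 6 fitted members were below 0 (median -0.25, against 0.01 over the 425 precursors), and none passed the adjusted threshold. mir-351 was at -0.28 ± 0.08 (edgeR, unadjusted p = 0.00104, adjusted p = 0.0880), mir-322 at -0.28 ± 0.10 (unadjusted p = 0.0121, adjusted p = 0.271) and mir-450b at -0.40 ± 0.13 (unadjusted p = 0.00639, adjusted p = 0.206). The other 3 were at -0.19 ± 0.19 for mir-542, -0.23 ± 0.21 for mir-450a-2 and 0.15 ± 0.16 for mir-450a-1 (adjusted p from 0.654 to 0.682).

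With edgeR no precursor of the 425 passed in this comparison, and 13.9% had an unadjusted p under 0.05, 5.88% in the lower direction. Of the 6 fitted members 3 were among the latter. mir-351 was the only member without overlap between 9 and 24 months, where 0.941% of the precursors were lower without overlap. With lane as a covariate mir-322 (-0.32, adjusted p = 0.0137) and mir-351 (-0.28, adjusted p = 0.0201) passed, among 15 precursors in all (2.12% lower and 1.41% higher). With DESeq2 mir-351 passed (-0.30, adjusted p = 0.0236), among 9 (1.18% lower and 0.941% higher). Over all alternatives other than leaving out 1 library, the adjusted p ran from 0.0137 to 0.501 for mir-322 and from 0.0201 to 0.295 for mir-351. Within the 4 lanes that held both ages, mir-351 was lower by -0.28 to -0.23, mir-322 by -0.27 to -0.12, mir-542 by -0.55 to -0.15 and mir-450b by -0.65 to -0.05, each in 4 of 4 lanes. mir-450a-2 and mir-503 were lower in 3 of 4 lanes and mir-450a-1 in 2 of 4. The share of all precursors lower in 4 of 4 lanes was not computed for any comparison.

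At 15 against 9 months the members lay between -0.18 (mir-450b) and 0.06 (mir-322), and none passed with edgeR or DESeq2 (adjusted p = 0.998 for each with edgeR). None of the 6 had an unadjusted p under 0.05, against 6.35% of the 425 precursors (4.47% in the lower direction; 1.18% were lower without overlap, no member among them). Of all precursors 0 passed the adjusted threshold with edgeR and 2 with DESeq2. At 24 against 15 months mir-322 was at -0.34 ± 0.10 (edgeR, unadjusted p = 0.00330, adjusted p = 0.221) and mir-351 at -0.25 ± 0.08 (unadjusted p = 0.00263, adjusted p = 0.221), while mir-450b, mir-450a-2, mir-542 and mir-450a-1 lay at -0.22, -0.14, -0.04 and 0.13 (adjusted p from 0.545 to 0.945). Here 10.8% of the precursors had an unadjusted p under 0.05, 3.53% in the lower direction, and 0.235% passed the adjusted threshold, which was mir-378a alone. With lane as a covariate mir-322 passed (-0.35, adjusted p = 0.0212), 1 of 2 precursors that did (0.471%). mir-351 was again without overlap, as were 0.941% of the precursors in that direction. Its 15-month libraries lay from 137 to 146 CPM and its 24-month libraries from 109.8 to 128.6 CPM. Within lanes mir-322, mir-351 and mir-542 were lower in 4 of 4, mir-503, mir-450a-2 and mir-450b in 2 of 4 and mir-450a-1 in 1 of 4.

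**Figure D4:**
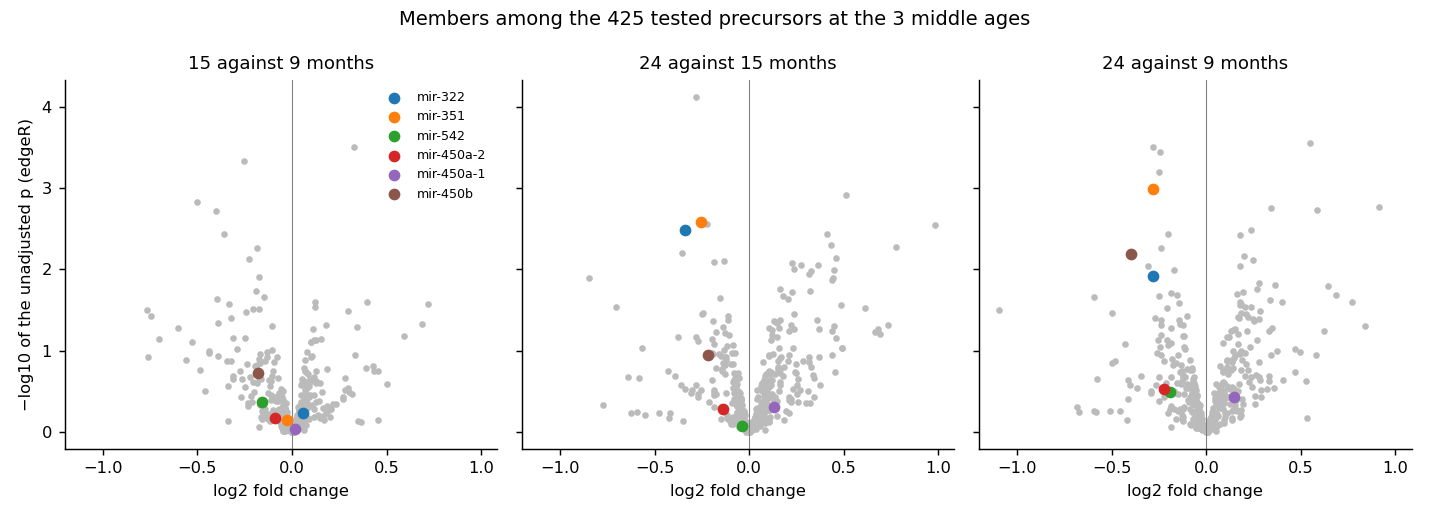
Log2 fold change against −log10 of the unadjusted p (edgeR) for the 425 fitted precursors (grey) and 6 members (coloured) in each comparison of the middle ages. mir-322 and mir-351 lie near 0 at 15 against 9 months and at -0.34 and -0.25 at 24 against 15 months.

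The proportions of the abundant members differed little between ages. mir-322 took 32.3% ± 3.04 of the reads of the cluster at 2 months, 30.2% ± 2.19 at 9, 31.7% ± 2.85 at 15, 30.1% ± 2.16 at 24 and 31.7% ± 3.38 at 30 months (SD, n = 5), differences smaller than the SD. mir-351 lay between 57.0% and 58.6% in the mean of every age. The share of mir-450a-1 was 2.16% ± 0.243 at 9 months (highest library 2.44%) and 2.88% ± 0.530 at 24 months (lowest library 2.53%), so these ages did not overlap. The share of mir-450b was 4.35% ± 0.354 at 9 months and 3.44% ± 0.532 at 30 months, a difference larger than either SD. The 24-month share of mir-450a-1 includes replicate 2 at 3.81%, and the split of reads between the mir-450a copies is uncertain. These comparisons of shares were picked from those of 7 members at 5 ages, without a background of other hairpins, and were not tested. The ratio of mir-322 to mir-351 reads averaged between 0.517 and 0.572 at the 5 ages, with an SD of 0.0567 to 0.101. That ratio was 0.615 to 0.748 in the 5 libraries of lane 3 and 0.455 to 0.640 in the other 20 (medians 0.622 and 0.502), ranges that overlap. What part the lane has in it was not tested.

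Hairpins of 1 primary transcript could be high or low together in the same animal. Deviations of log2(CPM + 0.5) from the age mean were therefore correlated between mir-322 and the 6 other members over the 25 libraries, with libraries permuted within ages. With mir-351 Pearson's r was 0.11 and Spearman's rho 0.10 (permutation test, 2-sided, unadjusted p = 0.625 and 0.642, adjusted over 6 pairs 0.732 and 0.776). For the other 5 members r lay between -0.11 (mir-450b) and 0.13 (mir-542), and rho between -0.10 and 0.23 (adjusted p from 0.732 to 0.943 by permutation). Without the 2 libraries farthest from the median of mir-322, r with mir-351 was -0.07. With lane means also removed it was 0.37 (permutation test, unadjusted p = 0.0749, adjusted 0.346). Without lane 3, over 20 libraries, it was 0.56 (adjusted permutation p = 0.206). The r with mir-351 was higher where lane was taken into account, without passing the adjusted threshold. A correlation of mir-322 with another member was thus not detectable over the 25 libraries, pairs without mir-322 were not examined, and for the members with few reads counting error makes up most of the deviations.

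**Figure D5:**
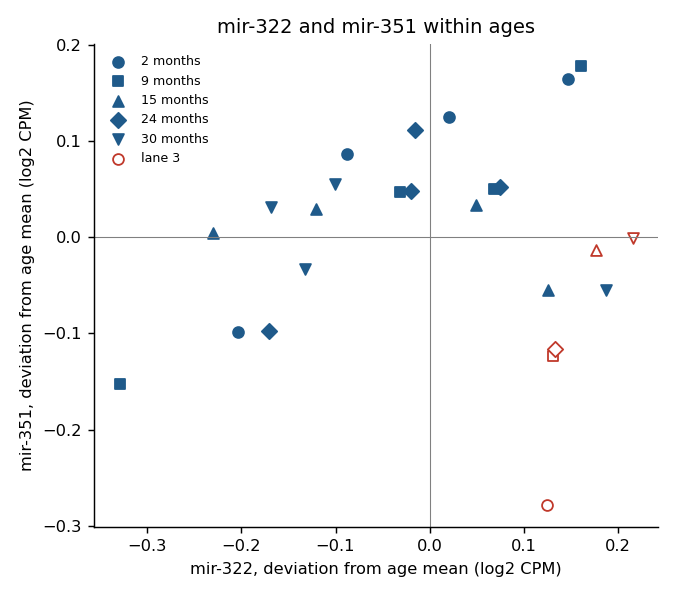
Deviation of mir-351 from its age mean against that of mir-322 (log2 CPM), 1 point per library, with age as symbol and lane 3 as open red symbols. Over the 25 libraries r is 0.11; the 5 libraries of lane 3 all lie above 0 for mir-322 and below 0 for mir-351.

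The seed relatives were far more abundant than the members. mir-322 was 1.05% ± 0.0431 of its summed level with the miR-15/16 hairpins at 2 months, 0.737% ± 0.101 at 9, 0.730% ± 0.0465 at 15, 0.564% ± 0.0253 at 24 and 0.572% ± 0.0440 at 30 months (SD, n = 5). mir-351 was 0.978% ± 0.148 of its summed level with mir-125a, mir-125b-1 and mir-125b-2 at 2 months and 0.634% ± 0.0214 at 30 months. Of 8 listed miR-15/16 hairpins 7 were fitted, and mir-195b had 0 reads in every library. At 30 against 2 months 3 of them rose and 1 fell with edgeR, where 19.1% of all 425 precursors rose and 17.9% fell. mir-15a rose by 0.27 ± 0.06 (adjusted p = 0.00221), from 473 ± 35.3 to 571 ± 49.5 CPM, and passed under each of 4 scalings. mir-16-1 and mir-16-2, at 0.20 ± 0.08 each (edgeR, adjusted p = 0.0443 and 0.0437), lost the call under RLE and upper-quartile scaling, and mir-16-1 also with library totals. Their levels were nearly the same (4324 and 4283 CPM at 2 months, 4958 and 4923 CPM at 30 months) and made up most of the family sum. As the counting of reads with several matches is not given, these 2 rises cannot be taken as separate. The shares above depend on that counting as well. If reads common to mir-16-1 and mir-16-2, or to mir-125b-1 and mir-125b-2, were counted at each, the family sums are too high. The shares of mir-322 and mir-351 would then be too low. No arm of mir-497b was among the mature miRNAs with the seed of miR-322-5p. It was still counted in the family sum (138 of 9744 CPM at 2 months). mir-497b fell by 0.34 ± 0.11 (edgeR, adjusted p = 0.0223). mir-497a, on the other strand of that locus, lay at -0.29 ± 0.13 (adjusted p = 0.0721) and passed under the 3 other scalings; without knowledge of strand in the counting the reads of these 2 cannot be told apart. None of the 3 miR-125 hairpins passed, with values from -0.09 to 0.08.

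The difference between the members and these relatives was tested at 24 against 9 months, a test added after the values had been seen. Its p-values are therefore descriptive. The ratios rest on the same levels of mir-322 and mir-351 that did not pass in the main edgeR fit. The log2 ratio of mir-322 to the summed miR-15/16 hairpins was lower at 24 months by -0.38 (-7.46 ± 0.07 against -7.08 ± 0.20, SD, n = 5; exact permutation test, 2-sided, p = 0.00794, the smallest that 5 against 5 allow; 0.0159 adjusted over the 2 ratios). That of mir-351 to the miR-125 hairpins was lower by -0.26 (-7.34 ± 0.16 against -7.08 ± 0.15; exact permutation p = 0.0238, adjusted 0.0238). Each ratio was lower in 4 of 4 lanes. Without 24-month replicate 4 the second difference was -0.19 (exact permutation p = 0.0556).

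Hairpins of other loci on the X chromosome were examined beside the members. Of 31 listed hairpins of other X-linked loci 25 were fitted, and at 30 against 2 months 3 rose and 4 fell with edgeR, with a median log2 fold change of -0.06, where 19.1% of all 425 precursors rose and 17.9% fell. The falls were mir-188, mir-374b, mir-374c and mir-448 (-0.45 to -0.32) and the rises mir-221, let-7f-2 and mir-384 (0.17 to 0.38), of which mir-221 lost its call under RLE and upper-quartile scaling. At 24 against 9 months none of the 25 passed (median 0.04). Of 12 hairpins from growth-linked imprinted loci 11 were fitted, with 3 falls and 1 rise at 30 against 2 months (median -0.07), set against the same shares of all precursors, and none at 24 against 9 months (median 0.04). The falls were mir-296 (-1.20 ± 0.16, edgeR, adjusted p = 6.51e-06), which was larger than that of any member of the cluster, mir-337 (-0.39) and mir-335 (-0.29), and the rise was mir-434 (0.22).

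The libraries carried the markers of brain. The counts of calls below are at 30 against 2 months, where 19.1% of all 425 precursors rose and 17.9% fell. The 10 neuronal hairpins summed to 78994 to 89150 CPM at 2 months and 70930 to 88366 CPM at 30 months, with 4 lower and 0 higher by edgeR with TMM scaling. The 3 oligodendrocyte hairpins (mir-219a-1, mir-219a-2, mir-338) summed to 2487 to 2913 CPM at 2 months and 3612 to 4554 CPM at 30 months, and all 3 rose. The 4 endothelial and mural hairpins summed to 27928 to 31944 CPM at 2 months and 28642 to 31054 CPM at 30 months, with 1 higher. The 5 muscle hairpins, of interest since mir-322 and mir-503 are known from muscle, summed to 188 to 251 CPM at 2 months and 230.03 to 279 CPM at 30 months, and 2 of the 4 fitted rose. Among the remaining lists, 2 of 4 microglia and leukocyte hairpins rose and 1 fell (1092 to 1248 CPM at 2 months, 921 to 1091 at 30 months), 2 of 4 choroid plexus and ependyma hairpins rose (7582 to 9003 and 8989 to 10032 CPM), and none of 3 erythroid (1205 to 1976 and 1451 to 3034 CPM), 8 epithelial and sensory (367 to 7006 and 1170.4 to 8702 CPM) or 1 liver hairpin (0.996 to 3.52 and 0.595 to 2.78 CPM) passed. At 24 against 9 months no hairpin of any marker list passed, although all 8 epithelial and sensory hairpins lay below 0 (median -0.55). The part of these in the levels of the cluster was not tested.

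By the log2 of the summed level of the members over 25 libraries, the hairpins with the most similar pattern among those with a mean of at least 10 CPM were mir-376c (Pearson's r = 0.86), mir-337 (0.81), mir-1983 (0.80), mir-670 (0.79) and mir-674 (0.79). The least similar were mir-10a (-0.83), mir-210 (-0.80) and mir-93 (-0.79). These values follow the differences between ages: within ages the r of the same 8 hairpins lay between -0.27 and 0.16. They are descriptions, since the hairpins were picked as the extremes.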

How the data were processed

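The deposited table holds raw counts for 1193 miRNA hairpins in 25 libraries, as the authors made it, with 1 value per hairpin for both arms. Per the labels' protocols, libraries were made from total RNA with the TruSeq small RNA kit, and Trimmomatic 0.36, SAMtools 1.3.1-9 and bcl2fastq 1.8.4 appear in the submitters' processing notes. For the aligner, counter, genome build, use of strand and reads with several matches, the setting is not given in the sources used here. Ages came from the labels and lanes (6) from column names; all columns were used.

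Counts were analysed with R 4.3.3 and edgeR 4.0.16: filterByExpr (425 kept, 768 set aside), TMM, 1 quasi-likelihood model of age, F tests, Benjamini-Hochberg adjustment over 425 at 0.05. The SE of a log2 fold change was taken as the change over the root of its F statistic. DESeq2 1.42.0, other scalings and filters, lane as covariate, subsets and leaving out each library were alternatives. Permutations (100000 draws, or exact) and figures used Python 3.11.15 with numpy 2.4.6 and matplotlib 3.10.9. The fit was tested on simulated data. Without molecular identifiers reads are not independent molecules, so precision was taken from the spread between libraries.

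The members, lists and tests were chosen with earlier results of these data known. Named hairpins were the members, their seed relatives, and the 5 most and 3 least similar with a mean of at least 10 CPM; other hairpins are named from the lists where they passed.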

Additional observations from a re-analysis of the deposited data

Results flagged for a closer look

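mir-450a-1 in replicate 2 of 24 months stood apart from the other 4 libraries of its age, at 8.26 CPM (47 reads) against 5.23 to 5.45 CPM; the gap to the nearest library was 0.929 of the range of the group, where 0.71 is the critical value for 5 libraries. Without this library the log2 fold change of mir-450a-1 at 24 against 9 months was -0.01 in place of 0.15. Among 40 groups examined (7 members and their sum at 5 ages) this was the 1 that stood out by this rule, and chance gives about 1 in 20.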

How the results depend on the processing

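No paired analysis was possible because every library carries its own animal number and the ages share none; the ages do share sequencing lanes, and lane entered as a covariate. The count of fitted members that passed changed from 0 to 2 with lane as covariate and to 1 with DESeq2 at 24 against 9 months, and from 0 to 1 with lane as covariate at 24 against 15 months; it was 0 in each refit without 1 library. The median at 30 against 2 months lay between -0.80 and -0.72 over the other settings and between -0.80 and -0.73 without 1 library. Values near 0 turned sign. At 15 against 9 months mir-450a-1 was -0.00308 under upper-quartile scaling, and without 1 library it lay between -0.135 and 0.0792, mir-322 between -0.0266 and 0.112, mir-351 between -0.0752 and 0.0327, mir-542 between -0.265 and 0.0337 and mir-450a-2 between -0.172 and 0.0144. At 24 against 15 months mir-542 was 0.00405 under upper-quartile scaling and 0.116 without lane 3, and without 1 library between -0.233 and 0.0660, with mir-450a-1 between -0.0171 and 0.276. At 24 against 9 months mir-450a-1 lay between -0.00636 and 0.209 without 1 library. At 30 against 24 months mir-322 lay between -0.0254 and 0.0624 over the other settings and between -0.0322 and 0.0841 without 1 library, mir-542 between -0.138 and 0.0170, mir-450a-2 between -0.584 and -0.177 and mir-450b between -0.346 and -0.138 without 1 library. The within-age r with mir-322 turned sign with lane means removed for mir-503 (-0.394), mir-542 (-0.0495), mir-450a-1 (-0.164) and mir-450b (0.250), without the 2 farthest libraries for mir-503 (-0.0458), mir-351 (-0.0665), mir-450a-2 (-0.00693) and mir-450a-1 (-0.0752), and without lane 3 for mir-450b (0.0180). The cause of these changes was not tested. Under the stricter filter (10 CPM in 5 libraries) mir-542 and both mir-450a hairpins were not fitted. Of 6 members fitted, 4 have under 100 reads per library, which limits what can be seen in them.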
